A study of Mus musculus with 6 samples.

Results

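The genes described here are 10 enzymes and enzyme partners that make or break down prostaglandins and leukotrienes, found by symbol among the 31248 rows with a usable value in every library. They are Hpgd, Alox5, Alox5ap, Ltc4s, Lta4h, Ptgs1, Ptgs2, Ptges, Pla2g4a and Tbxas1, and each symbol had 1 row. They were chosen by pathway, with the large fall of Hpgd between the groups already known, so differences between the groups are given for these genes as descriptions, without p-values. The Dot1l-deleted group was 3 libraries of cells with the genotype Dot1l -/-, taken at day 7 after transduction with Cre, the recombinase that cuts out the floxed part of the gene. The control group was 3 libraries of Dot1l flox/flox cells at day 7 after transduction with a control. DOT1L is the enzyme that methylates lysine 79 of histone H3. Both groups were C57Bl/6 mouse common myeloid progenitors, early blood cells that form the granulocytic, monocytic, erythroid and megakaryocytic lines, transformed with MSCV-MN1-IRES-GFP, a retrovirus that carries the leukaemia oncogene MN1. Both grew in M3234 with FBS, IL3, IL6 and SCF and were sorted before RNA extraction. No library had Cre with an intact Dot1l gene, so an effect of Cre itself and one of losing Dot1l cannot be told apart. Nothing in the labels ties a replicate to its own culture or animal, so the spread between libraries may be technical.

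These enzymes act on arachidonic acid, a fatty acid held in membrane phospholipids. The cytosolic phospholipase encoded by Pla2g4a cuts it free. The cyclooxygenases encoded by Ptgs1 and Ptgs2 turn it into the common precursor of the prostaglandins, which Ptges makes into a prostaglandin E and Tbxas1 into thromboxane, and the dehydrogenase encoded by Hpgd inactivates prostaglandins. On the other branch, the lipoxygenase encoded by Alox5, helped by the membrane protein of Alox5ap, makes the unstable first leukotriene. The Lta4h hydrolase and the Ltc4s synthase then draw on that leukotriene to give the attractant of neutrophils and the glutathione-bearing leukotrienes. Neutrophils, monocytes, mast cells and eosinophils are known sources of leukotrienes, and platelets of thromboxane.

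Dot1l itself (ENSMUSG00000061589) had 8.24, 8.17 and 5.80 FPKM in the Dot1l-deleted libraries, against 20.2, 22.6 and 19.6 FPKM in the controls. FPKM counts fragments for each kilobase of a gene, relative to all mapped fragments of the library. The log2 fold change, on log2(FPKM + 1) and as Dot1l-deleted minus control throughout, was -1.39 (SE 0.157, limma adjusted p = 0.000124), and by exact permutation (two-sided) p = 0.1, the lowest value possible with 3 libraries against 3. The libraries listed 17515 to 18034 genes above 0 FPKM in the Dot1l-deleted group and 17310 to 17708 in the control group. Of 8 progenitor markers, all tested, 1 rose and 5 fell. Kit and Cd34, which fell, averaged 57.6 and 123 FPKM in Dot1l-deleted libraries, against 117 and 750 FPKM in controls. Mpo, which rose, averaged 2319 FPKM in Dot1l-deleted libraries and 572 FPKM in controls, and Myb, which did not pass the test, averaged 263 and 257 FPKM in Dot1l-deleted and control libraries. The third Dot1l-deleted library stood apart: its tested genes lay at a median log2 deviation of -0.37 from the mean of the 6 libraries, against 0.05 to 0.10 in the other 5. Its 10 highest rows held 39.0% of its summed FPKM, against 6.59% to 10.8% in those 5. As FPKM is relative to the whole library, this bears on its values as deposited. Without it, 2041 genes were higher and 2517 lower at a limma adjusted p under 0.05, against 886 and 1459 with all 6 libraries. Why it stood apart was not tested. With the values as deposited, the 11924 tested genes had a median log2 fold change of -0.16, and scaling each library by the median of its ratios to the gene means moved it to -0.02. Values after this scaling are called scaled below.

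Hpgd, the gene of the enzyme that inactivates prostaglandins, fell 24.7-fold. Pla2g4a, which frees arachidonic acid, and Alox5, the lipoxygenase that opens leukotriene synthesis, fell by less, 1.50-fold and 1.97-fold, and Lta4h, which completes the neutrophil attractant, rose 1.58-fold. Of the 8 members with a mean of at least 1 FPKM, these 4 had an adjusted p under 0.05 in the limma fit across all genes. In that fit 19.7% of all tested genes were called, 7.43% higher and 12.2% lower. Because the contrast helped to choose the members, nothing is read from their count. For the same reason a member's call, here and below, is a description and not support. Alox5ap, Ptgs1, Tbxas1 and Ltc4s did not pass, and Ptgs2 and Ptges were below the filter. With scaling Alox5ap, Ptgs1 and Tbxas1 were also called higher, where 45.9% of all tested genes were called, 21.3% higher and 24.7% lower.

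**Figure D1:**
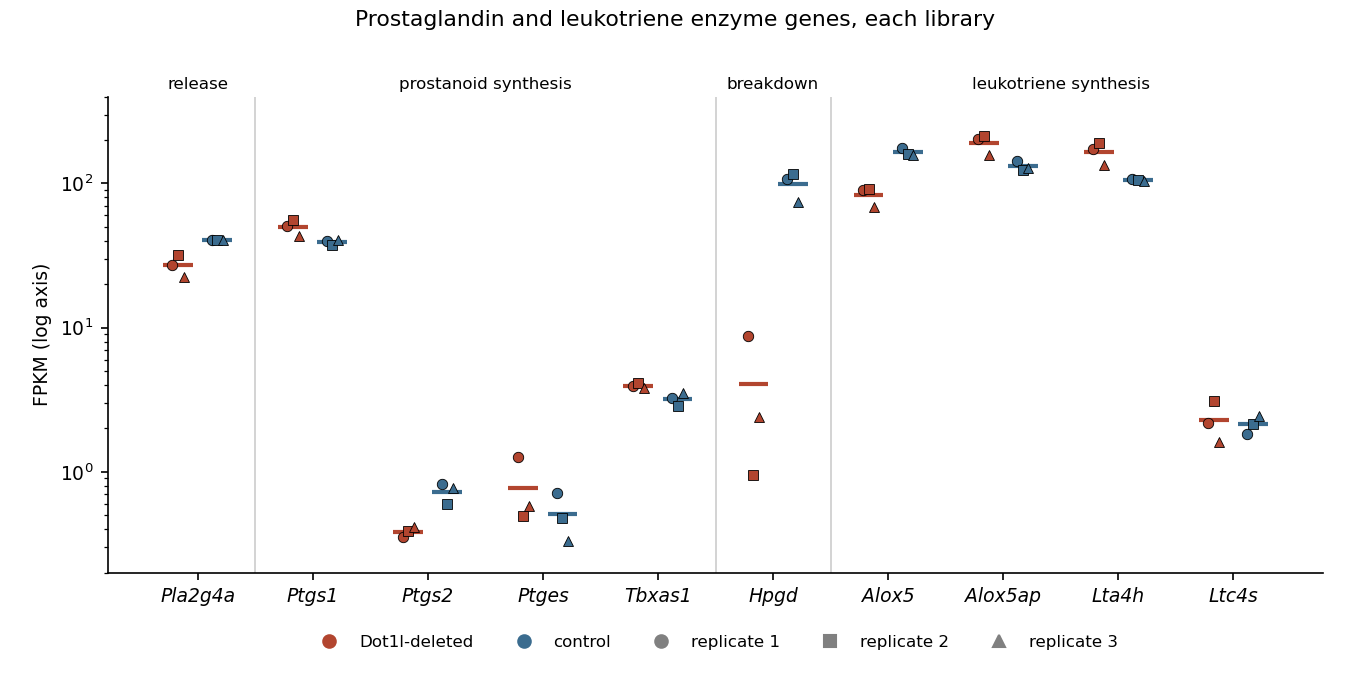
FPKM of the 10 genes in each library on a log axis, with Dot1l-deleted libraries in red left of control libraries in blue, symbols for replicate numbers and bars for group means. Hpgd lies between 0.949 and 8.76 FPKM in the Dot1l-deleted libraries and between 74.6 and 117 FPKM in the controls, the widest gap of the 10.

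The 250 bases before the start are shown for the 4 called members, so that the promoters of genes that moved in opposite directions can be compared. The sequences are RefSeq's, on build GRCm38.p6, which is not the mm9 build named in the submitters' processing notes, and are written 5′ to 3′. The bases after the start were found in a GENCODE M21 transcript for Alox5 and Pla2g4a, but not for Hpgd and Lta4h. The starts used for Hpgd and Lta4h are thus less certain. Capitals mark matches on either strand to GGGCGG (a GC box) and GAGGAA (a form of ETS factor site, called ETS core here). They also mark, on either strand, CCAAT (known as a box of many promoters), TATAAA (the core of a TATA box) and TTGCNNAA (paired C/EBP half-sites). No 2 of these matches overlapped in the sequences shown.
Hpgd, chr8:56294302-56294551, plus strand: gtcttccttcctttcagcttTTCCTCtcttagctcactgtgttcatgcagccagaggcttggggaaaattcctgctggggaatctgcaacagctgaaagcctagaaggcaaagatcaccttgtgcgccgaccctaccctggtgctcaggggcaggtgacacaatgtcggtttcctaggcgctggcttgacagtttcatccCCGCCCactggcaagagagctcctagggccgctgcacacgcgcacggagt
Alox5, chr6:116461179-116461428, minus strand: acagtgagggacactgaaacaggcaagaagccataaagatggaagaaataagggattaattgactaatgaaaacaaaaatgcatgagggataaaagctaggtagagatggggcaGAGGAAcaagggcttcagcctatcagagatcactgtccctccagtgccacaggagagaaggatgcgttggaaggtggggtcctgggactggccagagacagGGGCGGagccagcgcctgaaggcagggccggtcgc
Pla2g4a, chr1:149961291-149961540, minus strand: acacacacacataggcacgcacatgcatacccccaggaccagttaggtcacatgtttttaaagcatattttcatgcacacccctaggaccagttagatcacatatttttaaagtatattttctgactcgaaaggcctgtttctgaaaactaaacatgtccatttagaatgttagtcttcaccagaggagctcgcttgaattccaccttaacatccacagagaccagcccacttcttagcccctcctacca
Lta4h, chr10:93453146-93453395, plus strand: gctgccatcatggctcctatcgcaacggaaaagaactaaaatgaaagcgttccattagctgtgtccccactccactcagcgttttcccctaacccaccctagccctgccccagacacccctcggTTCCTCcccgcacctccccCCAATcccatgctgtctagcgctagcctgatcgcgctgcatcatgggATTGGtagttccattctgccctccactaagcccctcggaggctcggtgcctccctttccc

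Hpgd and Alox5, which fell, each held 1 GC box and 1 ETS core, while Lta4h, which rose, held 1 ETS core and 2 CCAAT boxes, and the Pla2g4a window shown held none of the 5 motifs. The table has a second Pla2g4a window, for another start, which held 1 TATA box. Alox5ap was not matched in the promoter table. Of the 9 members found there, 7 held GAGGAA on either strand in at least 1 window of this length, against 23.3% of all 32851 promoters in the table. A GC box stood in 4 of the 9, against 32.7% of all promoters. A TATA box stood in 2 (12.4% of all promoters), a CCAAT box in 1 (33.8%) and C/EBP half-sites in 1 (9.56%). These are matches of letters and not sites of binding, and other forms of the ETS site were not searched for. The RefSeq table places Pla2g4a and Ptgs2 near each other on chromosome 1.

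Hpgd (ENSMUSG00000031613) had 8.76, 0.949 and 2.41 FPKM in the Dot1l-deleted libraries, against 108, 117 and 74.6 FPKM in the controls. The groups did not overlap, and even the highest Dot1l-deleted library was far below the lowest control. The group means were 4.04 ± 4.15 and 99.7 ± 22.3 FPKM (SD, n = 3 each), and the log2 fold change was -4.62 (SE 0.463; scaled -4.48), rank 4 from the lowest among the 11924 tested genes. Hpgd was also the least even of the 8 tested members between replicates: its within-group SD on the log2 scale was 0.869, against a median of 0.193 over all tested genes, and 96.5% of those genes had a lower SD. The coefficient of variation was 103% in the Dot1l-deleted group and 22.3% in the control group. The first Dot1l-deleted library sets much of the mean there, and without it Hpgd was 59.4-fold lower than in controls. Leaving out any other library gave 17.9-fold to 27.8-fold.

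A search for tested genes with a pattern like that of Hpgd passed over symbols starting Gm or ending Rik. It used the Euclidean distance over the 6 libraries of log2(FPKM + 1) from each gene's mean. The nearest were Cd27, Hoxa10, Hlf, Wt1 and Hoxa9, at distances of 1.56 to 1.62. All 5 are among the large falls of this contrast, which the search itself favours, as the group difference makes up most of the pattern of Hpgd. The second Dot1l-deleted library was the lowest of the 6 libraries for each of these 5 genes, which were picked for a pattern like that of Hpgd. Hlf, a transcription factor gene of blood stem cells, had 7.51, 4.95 and 6.51 FPKM in the Dot1l-deleted libraries, against 107, 124 and 116 FPKM in the controls. Wt1, a zinc finger transcription factor gene, had 0.904, 0.299 and 1.28 FPKM in the Dot1l-deleted libraries, against 47.9, 45.4 and 54.2 FPKM in the controls.

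Pla2g4a (ENSMUSG00000056220), the arachidonate-releasing phospholipase, had 27.2, 31.8 and 22.3 FPKM in the Dot1l-deleted libraries, against 40.2, 40.8 and 40.7 FPKM in the controls. All Dot1l-deleted libraries were lower, and the controls differed by under 1 FPKM. The log2 fold change was -0.58 (SE 0.163; scaled -0.42), and the call was lost without each control library and without the first Dot1l-deleted library.

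Of the cyclooxygenases, Ptgs1 (ENSMUSG00000047250) was the abundant one in both groups. It had 50.9, 55.6 and 43.2 FPKM in the Dot1l-deleted libraries, against 40.2, 37.6 and 40.7 FPKM in the controls. The groups did not overlap, but the third Dot1l-deleted library was only a little above the highest control, and the log2 fold change of 0.32 (SE 0.155) did not pass. Scaled, it was 0.48 (SE 0.0686) and was called higher. Ptgs2 (ENSMUSG00000032487), the inducible cyclooxygenase, had 0.356, 0.388 and 0.412 FPKM in the Dot1l-deleted libraries, against 0.818, 0.595 and 0.770 FPKM in the controls. All Dot1l-deleted libraries were below all controls, at levels under the filter of 1 FPKM. With no filter Ptgs2 was called lower, at a log2 fold change of -0.32 (SE 0.0657). FPKM is per length, so both genes can be set side by side: the ratio of Ptgs1 to Ptgs2 was 143, 143 and 105 in the Dot1l-deleted libraries, against 49.1, 63.1 and 52.8 in the controls.

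Tbxas1 and Ptges, the members whose enzymes act on the cyclooxygenase product, were low. Tbxas1 (ENSMUSG00000029925), thromboxane synthase, had 3.93, 4.12 and 3.84 FPKM in the Dot1l-deleted libraries, against 3.26, 2.87 and 3.52 FPKM in the controls. Every Dot1l-deleted library was above every control, by a small step, and the log2 fold change of 0.24 (SE 0.143) did not pass. Scaled, it was 0.36 (SE 0.117) and was called higher. Ptges (ENSMUSG00000050737), the inducible prostaglandin E synthase of the membrane, had 1.26, 0.494 and 0.580 FPKM in the Dot1l-deleted libraries, against 0.712, 0.481 and 0.329 FPKM in the controls. The groups overlapped, and Ptges was below the filter.

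The leukotriene branch held the most abundant members. Alox5 (ENSMUSG00000025701), the lipoxygenase, had 90.5, 91.5 and 68.6 FPKM in the Dot1l-deleted libraries, against 176, 160 and 156 FPKM in the controls. All 3 Dot1l-deleted libraries were well below the controls, with a log2 fold change of -0.98 (SE 0.175; scaled -0.82). Its helper Alox5ap (ENSMUSG00000060063), which presents arachidonic acid to the lipoxygenase, had 203, 214 and 158 FPKM in the Dot1l-deleted libraries, against 143, 125 and 128 FPKM in the controls. All Dot1l-deleted libraries were higher, the third by the least. The log2 fold change was 0.52 (SE 0.177), which did not pass with the values as deposited; scaled it was 0.68 (SE 0.0568) and was called higher.

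Lta4h (ENSMUSG00000015889), the hydrolase that makes the neutrophil attractant, had 174, 190 and 134 FPKM in the Dot1l-deleted libraries, against 107, 105 and 103 FPKM in the controls. The groups did not overlap, with a log2 fold change of 0.64 (SE 0.177; scaled 0.80). The call was lost without each single library other than the third Dot1l-deleted one. Ltc4s (ENSMUSG00000020377), the synthase of the glutathione-bearing leukotrienes, had 2.17, 3.09 and 1.62 FPKM in the Dot1l-deleted libraries, against 1.83, 2.15 and 2.45 FPKM in the controls. The groups overlapped, and the log2 fold change of 0.05 (SE 0.199) did not pass either way. Ltc4s was the lowest of the leukotriene genes in every library, and only 11.7% of tested genes had a lower mean level over the 6 libraries, against 95.5% for Alox5ap.

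Among the 8 tested members, 7 had groups that did not overlap, as did 44.9% of all tested genes. The order of mean levels differed between the groups. In the Dot1l-deleted group Alox5ap and Lta4h came first, at 191 ± 29.5 and 166 ± 28.8 FPKM (SD, n = 3 each), and their libraries overlapped. Alox5 followed at 83.5 ± 12.9 FPKM and Ptgs1 at 49.9 ± 6.22 FPKM, while Hpgd stood with Tbxas1 and Ltc4s near the bottom. In the control group Alox5 came first at 164 ± 10.8 FPKM, then Alox5ap at 132 ± 9.60 FPKM, Lta4h at 105 ± 1.81 FPKM and Hpgd at 99.7 ± 22.3 FPKM, where Lta4h and Hpgd overlapped. Pla2g4a and Ptgs1, at 40.6 ± 0.324 and 39.5 ± 1.68 FPKM, overlapped too. Of the summed FPKM of the 10 genes, Hpgd made up 0.758% ± 0.722 in the Dot1l-deleted group and 16.9% ± 3.14 in the control group (SD, n = 3 each).

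**Figure D2:**
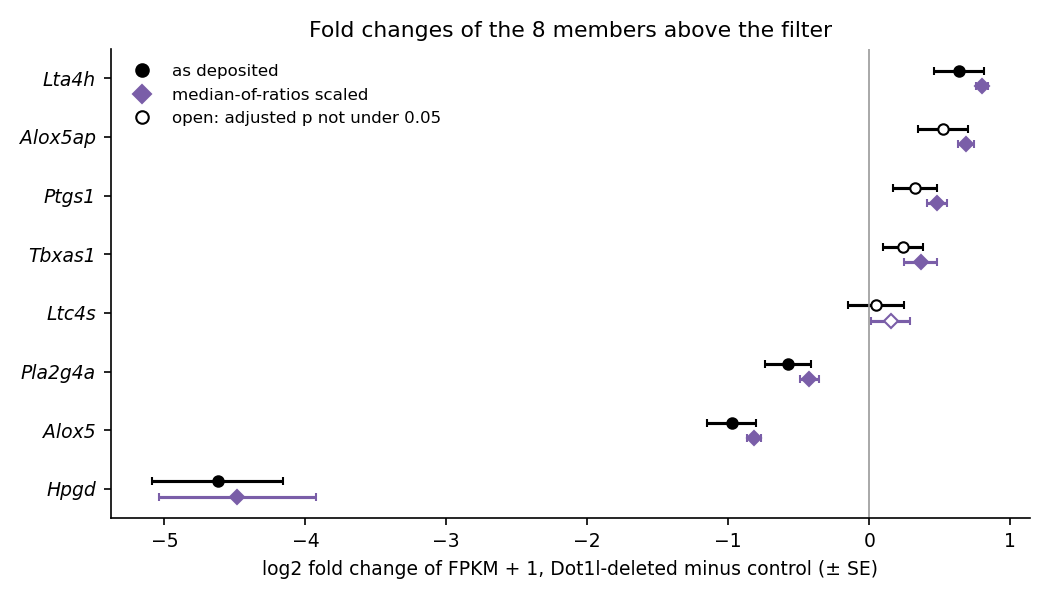
Log2 fold changes of FPKM + 1 with their standard errors for the 8 tested members, Dot1l-deleted minus control, as deposited (circles) and after median-of-ratios scaling (diamonds), with open symbols where the adjusted p was not under 0.05. Scaling moves each value up by 0.10 to 0.16; Hpgd stays near -4.6 and -4.5, and Alox5ap, Ptgs1 and Tbxas1 pass only when scaled.

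Ratios of members within a library do not depend on how libraries are scaled. The ratio of Alox5ap to Alox5 was 2.24, 2.34 and 2.30 in the Dot1l-deleted libraries, against 0.809, 0.783 and 0.818 in the controls, 2.85-fold higher on average. The ratio of Lta4h to Alox5 was 1.93, 2.08 and 1.96 in the Dot1l-deleted libraries, against 0.607, 0.660 and 0.662 in the controls. The hydrolase and the helper thus both gained on the lipoxygenase in every Dot1l-deleted library. The ratio of Alox5ap to Lta4h differed by less, with no overlap, at 1.15 ± 0.0267 in the Dot1l-deleted group and 1.25 ± 0.0750 in the control group (SD, n = 3 each). On the prostanoid side, the ratio of Ptgs1 to Pla2g4a was 1.87, 1.75 and 1.94 in the Dot1l-deleted libraries, against 0.9989, 0.9198 and 0.9997 in the controls. The ratio of Tbxas1 to Ptgs1 overlapped between the groups, at 0.0800 ± 0.00767 in the Dot1l-deleted group and 0.0813 ± 0.00512 in the control group. A ratio shows only that 2 genes changed unequally, not which of them changed.

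**Figure D3:**
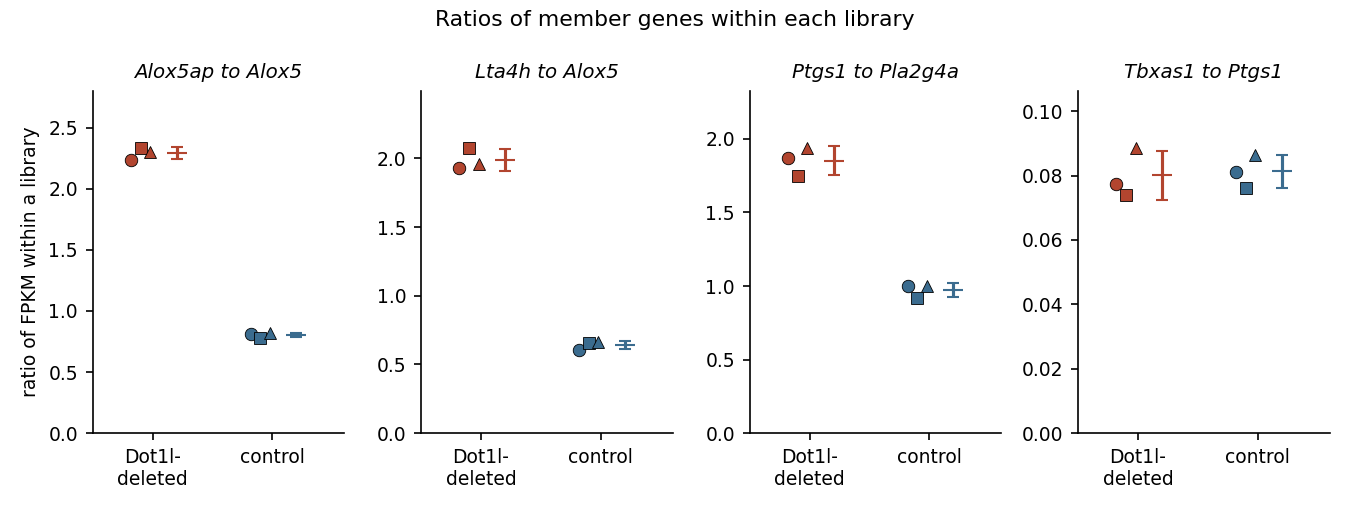
Ratios of FPKM between 2 members within each library, on axes that start at 0, with Dot1l-deleted libraries left of controls and the mean and SD (n = 3) beside the points. The first 3 ratios separate the groups, with 2.24 to 2.34 in Dot1l-deleted libraries and 0.783 to 0.818 in controls for Alox5ap to Alox5, and the ratio of Tbxas1 to Ptgs1 does not.

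Around the 10 members, 97 further symbols of the pathway were listed by role and 94 were found, of which 47 reached the filter. Of these 47, 11 rose, 8 fell and 28 did not pass, where 7.43% of all tested genes were called higher and 12.2% lower. Their median log2 fold change was -0.17, next to the -0.16 given above for the whole fit. With scaling, 18 were higher and 13 lower of 48 tested, and with Dot1l-deleted replicate 3 left out 16 and 12. Scaled, 21.3% of all tested genes were called higher and 24.7% lower. Whether these lists differ from all genes was not tested. The genes named are, for each list, up to 4 called genes with the smallest adjusted p and the gene of the highest level.

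Upstream of the members, genes that move arachidonic acid in and out of lipids went both ways. Of 13 tested genes of arachidonate recycling and release, 4 rose and 1 fell. Mgll, which hydrolyses monoacylglycerols including one that carries arachidonate, had 10.9, 10.7 and 8.32 FPKM in the Dot1l-deleted libraries, against 1.38, 1.20 and 1.22 FPKM in the controls (log2 fold change 2.27, SE 0.153, limma adjusted p = 3.768e-06). Lpcat2, an acyltransferase of phospholipid remodelling, rose 2.78-fold, and Acsl1, a fatty acid ligase, rose 2.36-fold. Acsl4, the ligase known to prefer arachidonate, fell to 19.6 ± 3.08 FPKM in Dot1l-deleted libraries, against 33.9 ± 1.28 FPKM in controls (SD, n = 3 each). The most abundant gene of the list, the ligase gene Acsl5, averaged 127 and 163 FPKM in Dot1l-deleted and control libraries and did not pass. Of 5 tested genes of the phospholipase A2 list, only Pla2g6, a calcium-independent enzyme, was called: it fell 1.74-fold. Plaa, the most abundant of that list, is named for activating phospholipase A2 and is not itself one of these enzymes. It averaged 50.6 and 60.4 FPKM in Dot1l-deleted and control libraries.

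Of 7 further tested genes of prostanoid synthesis, 3 fell and none rose. Ptgds, the lipocalin-type prostaglandin D synthase, had 0.626, 0.685 and 0.579 FPKM in the Dot1l-deleted libraries, against 7.21, 6.66 and 6.00 FPKM in the controls (log2 fold change -2.22, SE 0.154, limma adjusted p = 4.483e-06). The haematopoietic prostaglandin D synthase, deposited as Ptgds2 and now named Hpgds, had 1.89, 2.77 and 2.30 FPKM in the Dot1l-deleted libraries, against 4.09, 4.28 and 3.36 FPKM in the controls. Its call was lost with scaling, with no filter and without any of 4 single libraries (each control, and Dot1l-deleted replicate 1). Akr1c18, a hydroxysteroid dehydrogenase of the aldo-keto reductase family, fell 2.03-fold. Ptges3, a co-chaperone also described as a cytosolic prostaglandin E synthase, was the most abundant of the list and averaged 56.6 and 68.2 FPKM in Dot1l-deleted and control libraries, without passing.

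Other genes of prostanoid clearance went both ways. Of 8 tested genes of prostanoid clearance and transport, 2 rose and 1 fell. Ptgr1, the reductase that acts after the Hpgd enzyme and also metabolises a leukotriene, had 84.4, 91.3 and 60.8 FPKM in the Dot1l-deleted libraries, against 38.0, 37.0 and 40.8 FPKM in the controls (log2 fold change 0.99, SE 0.182, limma adjusted p = 0.003168). Cyp4f18, a cytochrome P450 known to oxidise leukotrienes in mouse neutrophils, rose 4.03-fold, and the transporter gene Slco3a1 fell 1.58-fold, a call that was lost without control replicate 2. Of 5 tested prostanoid receptor genes, Ptger4 and Ptger3, both receptors for prostaglandin E, fell 2.12-fold and 1.65-fold. Ptger1, another prostaglandin E receptor and the most abundant of the list, averaged 27.3 and 20.0 FPKM in Dot1l-deleted and control libraries and did not pass; scaled, it was called higher.

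On the leukotriene side the called genes outside the members all rose. Of 5 tested genes of leukotriene conversion and clearance, 3 rose and none fell. Mgst2, a microsomal glutathione transferase whose human form can make the same leukotriene as the Ltc4s enzyme, had 223, 300.1 and 188 FPKM in the Dot1l-deleted libraries, against 80.3, 64.5 and 62.5 FPKM in the controls (log2 fold change 1.75, SE 0.207, limma adjusted p = 0.0001685). Its relative Mgst1 rose 14.7-fold, and the P450 gene Cyp4f13 rose 1.95-fold, a call that was lost with no filter and without any of 4 single libraries (control replicates 2 and 3, and Dot1l-deleted replicates 1 and 2). In every library Mgst2 lay far above Ltc4s on the FPKM scale. Ltb4r1, the receptor for the attractant that Lta4h makes, was the one tested gene of the 9 found in the receptor list, and had 34.6, 33.5 and 26.6 FPKM in the Dot1l-deleted libraries, against 13.5, 11.5 and 10.3 FPKM in the controls (log2 fold change 1.35, SE 0.160, limma adjusted p = 0.0001677). Of 3 tested genes of the last list, Cotl1, whose human protein binds the Alox5 lipoxygenase, rose 2.12-fold.

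**Figure D4:**
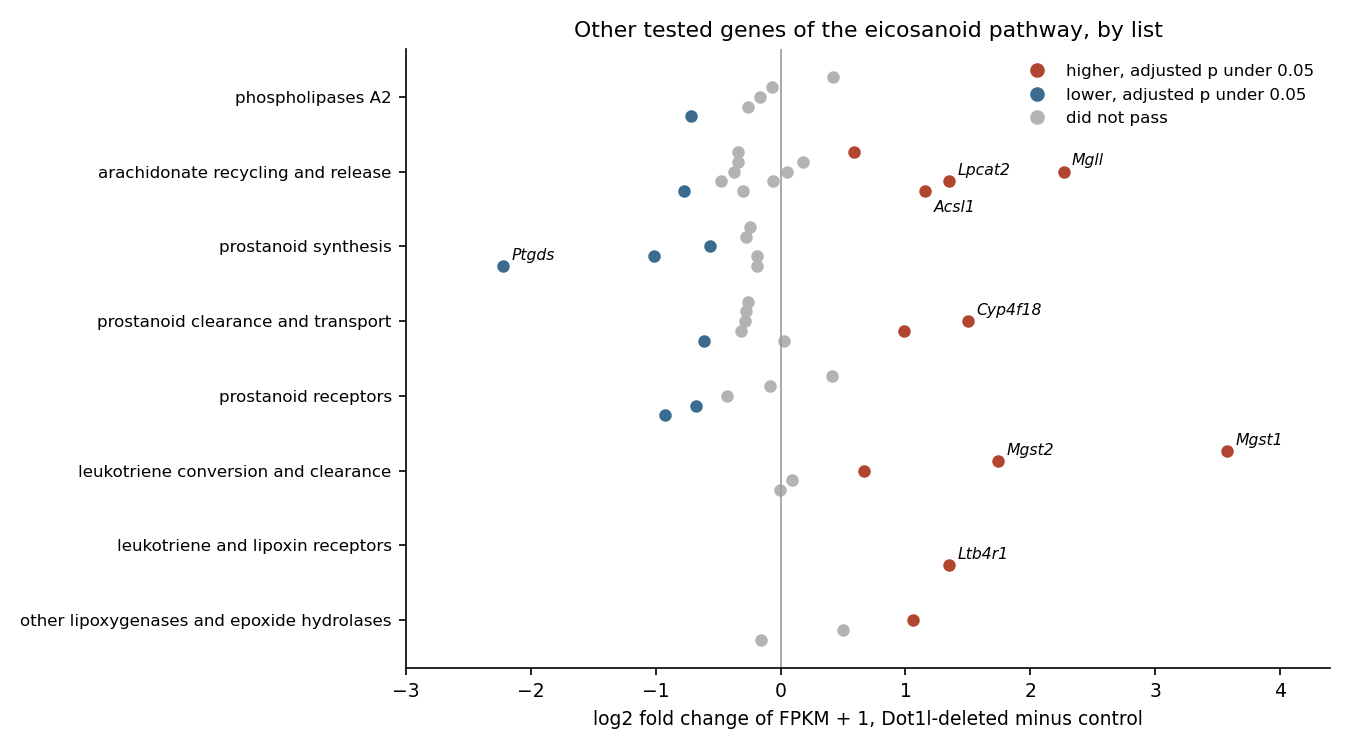
Log2 fold changes of FPKM + 1, Dot1l-deleted minus control, of the 47 tested pathway genes outside the 10 members, 1 row per list and 1 point per gene, red where higher and blue where lower at an adjusted p under 0.05, with names for values beyond 1.1 in either direction. Mgst1, Mgll and Mgst2 lie furthest to the right, and Ptgds furthest to the left.

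Several cell types make these enzymes, and their markers moved with the same contrast. All 9 tested of 10 late neutrophil markers rose, and their summed level was 20595 to 24412 FPKM in the Dot1l-deleted libraries, against 988 to 1220 FPKM in the controls, most of it from S100a8 and S100a9. Mmp9, which marks the last steps of neutrophil maturation, was listed at 0 in 5 of the 6 libraries. Of 7 tested monocyte and macrophage markers, 5 rose and 1 fell, with a summed level of 432 to 500.3 FPKM in the Dot1l-deleted libraries, against 86.7 to 108 FPKM in the controls, and the macrophage gene C1qa was listed at 0 in all 6. Of 9 tested mast cell and basophil markers, 3 rose and 4 fell, and the sum was 1548 to 2248 FPKM in the Dot1l-deleted libraries, against 2419 to 2662 FPKM in the controls. Of 7 tested megakaryocyte and platelet markers, 2 rose and 4 fell, with sums of 75.1 to 97.7 FPKM in the Dot1l-deleted libraries, against 141 to 146 FPKM in the controls, and the platelet receptor gene Gp6 was listed at 0 in all 6. The 2 tested of 6 eosinophil markers rose, with sums of 17.1 to 19.1 FPKM in the Dot1l-deleted libraries, against 2.87 to 3.94 FPKM in the controls. Of the other lists, 3 rose and 3 fell among 7 tested erythroid markers, 1 rose and 1 fell among 2 tested dendritic cell and MHC class II markers, and the 1 tested B cell marker rose. In each of the T and NK cell and the stromal and endothelial lists, 1 of 2 tested markers fell and none rose. In bulk RNA, fewer cells of a type and less RNA per cell cannot be told apart, and the part of these cell types in the values of the 10 genes was not tested.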

How the data were processed

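RNA from 3 Dot1l-deleted and 3 control samples of MN1-transformed mouse progenitors was sequenced with a stranded mRNA kit, per the labels. The authors deposited 1 FPKM value per Ensembl gene and library. CASAVA 1.8.2, GSNAP, SAMtools, Cuffdiff and the build mm9 are named in the submitters' processing notes, with no role or order, and for strand use at counting the sources used here give no statement. There were 31626 rows per table. The value 999999999, in 304 to 318 rows of a library, was taken as a failed estimate, and the 378 rows with it in any library were left out.

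FPKM holds no read counts, so the counting error is unknown. Steps of the lowest values of short RNA genes gave approximate depths of 0.737 to 0.895 of the first control library in the Dot1l-deleted group and 0.785 to 1 in the control group, with 28 to 45 of 176 to 190 genes at the ratio used in the 5 libraries compared.

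The 11924 genes with a mean of at least 1 FPKM were tested on log2(FPKM + 1) with limma 3.58.1 in R 4.3.3 (lmFit, eBayes with trend, two-sided), and called at a Benjamini-Hochberg adjusted p under 0.05. Such fold changes understate the change of low genes. Plain folds divide the group means of FPKM. Data were simulated with the means and within-group spreads seen here and noise independent between genes. Only 67, 67 and 66 of the 11924 genes were given log2 changes of 0.5, 1 and 2. The fit called 5.97%, 52.2% and 90.9% of these, with 7 false calls. Many changed genes and a shift of a whole library, as in the third Dot1l-deleted one, were not simulated, so these figures need not hold for the real data. A gene that did not pass may thus still have changed. Members, lists, named genes, tests and alternatives were chosen with earlier results of these data known. Named genes were, by rule, the members, Dot1l and the 5 genes nearest to Hpgd, passing over symbols starting Gm or ending Rik. In each other list they were up to 4 called genes with the smallest adjusted p and the gene of the highest level. Markers shown for checks come from fixed lists; the lists of erythroid, dendritic, lymphoid and stromal markers had summed levels of at most 74.4 FPKM in any library. In GENCODE M21, exons of Alox5ap, Ltc4s, Ptgs1 and Tbxas1 overlap those of genes on the other strand by 144 to 268 bases, so without strand those reads cannot be told apart. Same-numbered libraries did not deviate together (residual correlations of -0.038 to 0.013 over genes).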

Additional observations from a re-analysis of the deposited data

How the results depend on the processing

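Over the 16 alternatives the log2 fold change of Hpgd ran from -5.26 to -3.61 and that of Alox5 from -1.05 to -0.82; for these members, chosen with this contrast known, the ranges are descriptions. Dot1l (-1.49 to -1.06) kept its direction and call. Counts of called genes moved with scaling. Over all genes the fit called 886 higher and 1459 lower. Median-of-ratios scaling gave 2535 and 2940, with quantile normalization 2412 and 3196, with median-of-ratios scaling and the third Dot1l-deleted library left out 2158 and 2485, and with no filter 1342 higher and 1373 lower. Leaving out 1 library gave 700 to 2041 higher and 1012 to 2517 lower, the highest of both without Dot1l-deleted replicate 3. Of the other pathway genes, 18 were higher and 13 lower with median-of-ratios scaling, 13 lower with quantile normalization and 21 higher with no filter; leaving out 1 library gave 9 to 16 higher and 6 to 12 lower. Of the 10 members, 1 was called higher, and 4 with median-of-ratios scaling, 3 with quantile normalization and 3 with that scaling and the third Dot1l-deleted library left out; leaving out 1 library gave 0 to 3 higher and 2 to 3 lower. Without each control and without Dot1l-deleted replicates 1 and 2 the count higher was 0 by limma, and without Dot1l-deleted replicate 3 it was 3. Ltc4s, never called, turned to -0.03 without control replicate 1 and ran from -0.12 to 0.20 over the libraries left out. Of the 19 called pathway genes, 4 lost the call in some alternative: Ptgds2, Cyp4f13, Slco3a1 and Daglb, the last named after its values were seen. With the replicate number as a block, 1152 genes were called higher and 1801 lower, and Hpgd was at -4.62; with scaling and the block, 2161 and 2417, with 4 members and 17 other pathway genes higher. Nothing in the labels says that the numbers pair the libraries, and the residual correlations given above cannot settle it. The cause of these shifts was not tested. With 3 libraries a group and no read counts, small differences of low genes such as Ltc4s and Ptges cannot be resolved.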

Other observations

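Several pathway genes below the filter of 1 FPKM, untested and chosen after their values were seen, had Dot1l-deleted values that all lay above the control values. Cysltr1, a receptor for the glutathione-bearing leukotrienes, had 0.878, 1.50 and 0.678 FPKM in the Dot1l-deleted libraries, against 0.155, 0.197 and 0.1005 FPKM in the controls. Ptger2, a prostaglandin E receptor gene, had 1.62, 1.67 and 0.989 FPKM in the Dot1l-deleted libraries, against 0.236, 0.171 and 0.257 FPKM in the controls. The secreted phospholipase gene Pla2g5 averaged 1.31 ± 0.433 FPKM in Dot1l-deleted libraries and 0.143 ± 0.0114 FPKM in controls (SD, n = 3 each). Pla2g7, which encodes an enzyme that breaks down platelet-activating factor, averaged 0.869 ± 0.215 FPKM in Dot1l-deleted libraries and 0.0487 ± 0.0108 FPKM in controls (SD, n = 3 each). Alox15, another lipoxygenase gene, stayed under 0.3 FPKM in all 6 libraries. Other genes below the filter went the other way, with all Dot1l-deleted values below all control values. Ptgis averaged 0.321 FPKM in Dot1l-deleted libraries and 0.553 FPKM in controls, and Ggt7 averaged 0.346 and 0.564 FPKM.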
